A study of Drosophila melanogaster with 4 samples.

Results

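MicroRNA genes are the 262 annotated genes whose symbols begin with mir-, each of which encodes 1 precursor hairpin of 50 to 174 bp. They were selected by symbol and examined for binding of CG8924, a Drosophila melanogaster protein known by its annotation number. The 260 of them on 6 chromosome arms were counted among 17683 genes, and the other 2 lie on a ribosomal DNA scaffold on which no peak list has an entry. A precursor was counted as having a summit when the highest point of a peak lay inside it or within 2 kb upstream of its 5′ end on its own strand. By that rule 45 of the 260 precursors (17.3%) had a summit of the thresholded peak list.

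Binding was mapped by chromatin immunoprecipitation and sequencing in Drosophila melanogaster with an antibody to GFP and fragments of 200 to 800 bp. The chromatin was that of entire embryos, both sexes together, aged 0 to 24 h, from 1 transgenic line that carries CG8924 fused to GFP at its C terminus. The labels give 4 biological replicates of this group and no second condition, and all lists were called against 1 shared control. A peak in whole embryos does not say in which cells or at which hour the protein was bound.

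MicroRNAs are cut from longer primary transcripts. In the nucleus Drosha with its partner pasha releases the hairpin, Dcr-1 with loqs trims it in the cytoplasm, and AGO1 carries the mature strand to messenger RNAs that pair with its seed, whose translation and stability then fall. Some precursors lie in introns or exons of protein-coding host genes and are transcribed with them. Others have a primary transcript of their own, often annotated as a long non-coding RNA, whose start can lie far upstream of the hairpin. A peak near the hairpin and a peak at the start of the primary transcript are therefore different measurements. Both were made, the latter at any annotated start of the host or non-coding gene.

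The mature sequences below are those of the leading and best-studied precursors with a summit, shown because the seed defines which precursors act as a family. They were taken from RefSeq on the Release 6 (dm6) assembly, 5′ to 3′, with the seed, bases 2 to 8, in capitals.
mir-279-3p: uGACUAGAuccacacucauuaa
mir-282-5p: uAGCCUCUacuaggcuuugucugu
mir-13b-1-3p: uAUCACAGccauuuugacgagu
mir-13a-3p: uAUCACAGccauuuugaugagu
mir-2c-3p: uAUCACAGccagcuuugaugggc
mir-ban-3p: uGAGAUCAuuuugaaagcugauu
mir-375-3p: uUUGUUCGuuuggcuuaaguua
mir-277-3p: uAAAUGCAcuaucugguacgaca
mir-276a-3p: uAGGAACUucauaccgugcucu
mir-263b-5p: cUUGGCACugggagaauucac
mir-iab-8-5p: uUACGUAUacugaagguauaccg
mir-10-5p: aCCCUGUAgauccgaauuuguu
All 260 precursors had a mature arm in RefSeq, 481 arms in all, with 426 distinct seeds, of which 33 were shared by 2 or more precursors. The seed AUCACAG, that of the mir-2 and mir-13 family known to repress pro-apoptotic genes, belonged to 14 precursors, 4 of which had a summit. These were mir-13b-1, mir-13a and mir-2c, which lie side by side and share their summits, and mir-308. The seed GACUAGA of mir-279 was shared with mir-996 and mir-286, and only mir-279 of the 3 had a summit in its window. The seed AGGAACU of mir-276a was shared with mir-276b, which had none.

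The DNA under the summits is shown for 6 precursors as 101 bases of the plus strand centred on the summit, from the dm6 reference. Capitals mark the word AAATAT, the word AAAATA, the word TTAAAA, the word TAAATA and the word AAATAA, and their reverse complements, overlaps included. These are the 5 words of 6 letters whose share at the 7842 thresholded summits most exceeded that 500 bp away, chosen after the data were seen. The windows of mir-279, mir-282, mir-13b-1 and mir-ban are those of the stand-alone precursors with the highest peaks. That of mir-4911 has the lowest GC content of the 50, and that of mir-276a is among the higher ones, which reach 56.4%. In order, they are chr3R:29214395-29214495, chr3L:3250154-3250254, chr3R:15418894-15418994, chr3L:640688-640788, chr3L:10363993-10364093 and chr3R:15837145-15837245.
mir-279: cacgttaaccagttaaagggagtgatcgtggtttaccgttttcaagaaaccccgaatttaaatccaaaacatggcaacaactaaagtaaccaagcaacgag
mir-282: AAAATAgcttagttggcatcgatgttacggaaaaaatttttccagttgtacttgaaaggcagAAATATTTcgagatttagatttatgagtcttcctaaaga
mir-13b-1: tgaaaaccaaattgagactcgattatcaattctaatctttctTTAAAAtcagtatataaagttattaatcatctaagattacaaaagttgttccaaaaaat
mir-ban: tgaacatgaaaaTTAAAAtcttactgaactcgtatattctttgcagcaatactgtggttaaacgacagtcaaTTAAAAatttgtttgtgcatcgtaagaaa
mir-276a: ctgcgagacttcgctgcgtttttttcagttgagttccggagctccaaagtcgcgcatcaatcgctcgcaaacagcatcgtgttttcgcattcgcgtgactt
mir-4911: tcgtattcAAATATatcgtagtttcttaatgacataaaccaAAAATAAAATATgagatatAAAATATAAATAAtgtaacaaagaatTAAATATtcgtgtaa
The GC content of these windows was 40.6% for mir-279, 31.7% for mir-282, 22.8% for mir-13b-1, 29.7% for mir-ban, 51.5% for mir-276a and 18.8% for mir-4911. The windows of mir-279 and mir-276a held none of the 5 words, and that of mir-4911 held 11 matches to them.

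A smaller share of precursors than of other genes had a summit by the same rule. Against the 45 of 260 precursors (17.3%), 6428 of 17423 other genes (36.9%) had one, as did 5652 of 13945 other protein-coding genes (40.5%). Gene length enters that comparison, since the window covers the gene itself, so 749 other genes of up to 200 bp, among them 290 tRNA and 260 snoRNA genes, were counted too. Of these, 188 (25.1%) had a summit. With the gene body left out, 43 precursors (16.5%) had a summit in the 2 kb upstream, against 27.2% of other genes and 29.8% of other protein-coding genes. The precursors' share was above that of arbitrary positions, of which 10.2% on the 6 arms had a summit in such a 2 kb stretch. The difference on the upstream stretch, precursors minus other genes, was -10.7 percentage points. In the replicates' own lists, cut to the 7842 peaks of highest signal, 40, 46, 44 and 42 precursors had a summit in replicates 1 to 4, a mean of 16.5% ± 0.993 (SD, n = 4). Other genes had 36.8%, 36.7%, 36% and 36.4% by the same rule, so the highest share of precursors in any replicate was below the lowest share of other genes. Since there is 1 group, no test between conditions was possible, and precursors are not replicates of a condition, so shares are given as descriptions.

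**Figure D1:**
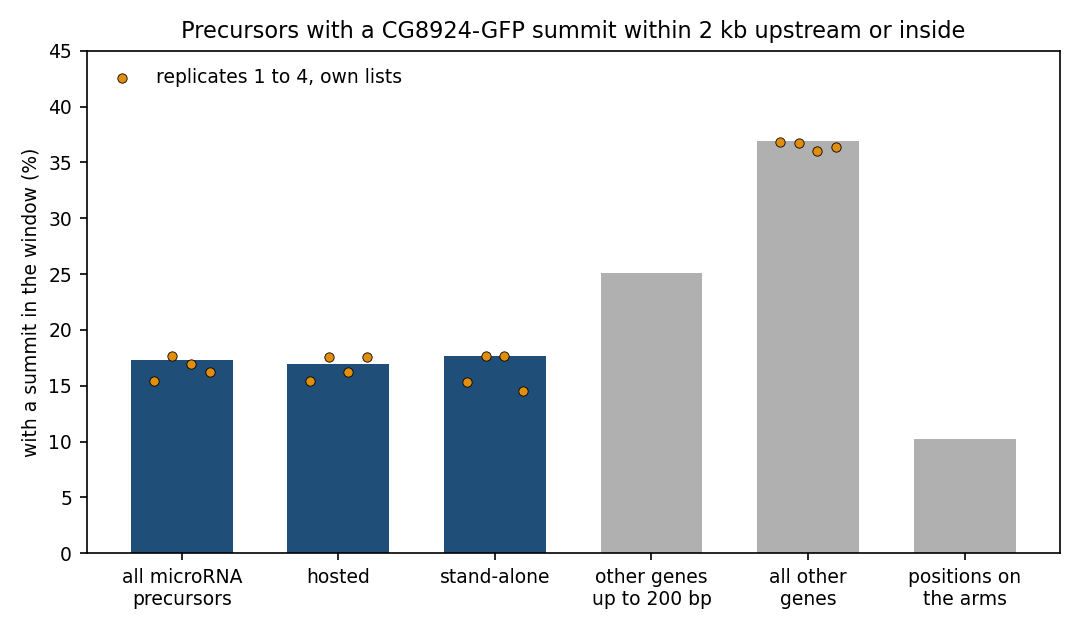
Percent of precursors (blue) and of other genes or positions (grey) with a summit within 2 kb upstream or inside; bars are the thresholded list and points, where drawn, the own lists of the 4 replicates. The 4 points for all precursors together lie between 15.4% and 17.7%, and those for all other genes between 36% and 36.8%.

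Of 136 precursors inside a protein-coding gene on the same strand, 23 (16.9%) had a summit, and of 124 stand-alone precursors, 22 (17.7%). The difference, hosted minus stand-alone, was -0.83 percentage points. In the replicates' own lists hosted precursors averaged 16.7% ± 1.10 and stand-alone precursors 16.3% ± 1.66 (SD, n = 4 each), so the difference is within the spread between replicates. It depended on the counting, at -6.31 points with each locus counted as 1 and 7.66 with a reach of 5 kb. Among stand-alone precursors, 4 of 30 on the opposite strand of a coding gene (13.3%) and 18 of 94 outside coding genes (19.1%) had a summit. The larger contrast lay within the stand-alone class: 13 of the 46 inside a same-strand non-coding RNA gene had a summit (28.3%), against 9 of the 78 outside any (11.5%). Clusters weigh on both sides, with up to 8 precursors in a locus inside and 12 outside, and mir-13b-1, mir-13a and mir-2c count as 3 of the 13. Counted by locus, 11 of 32 inside had a summit (34.4%) and 9 of 50 outside (18%). A locus with precursors of both kinds counts on both sides, as does that of mir-275 (inside) and mir-305 (outside), which share a summit.

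Neighbouring precursors are not independent of each other. Chained at gaps of up to 10 kb on a strand, the 260 precursors formed 203 loci, and 41 loci (20.2%) had a summit. Of the 22 loci with several precursors 6 had a summit, and of the 181 single ones 35 did. By arm, 9 of 56 precursors on 2L had one (16.1%), against 34.9% of other genes there, and 12 of 55 on 2R (21.8%), against 34.9%. On 3L it was 5 of 31 (16.1%), against 37.8%, and on 3R 14 of 58 (24.1%), against 37.8%. On chromosome 4 it was 0 of 2, against 33.0%, and on X 5 of 58 (8.62%), against 39.7%. The share of precursors was thus below that of other genes on each arm but chromosome 4, where 2 precursors are too few for a share. These shares by arm count each precursor of a cluster, and loci were not counted by arm.

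Within 2 kb, summits lay upstream more often than downstream. In the 2 kb beyond the 5′ end 43 precursors had a summit (16.5%), and in the 2 kb beyond the 3′ end 22 had one (8.46%), 11 of them hosted and 11 stand-alone. Other genes of up to 200 bp had 183 upstream (24.4%) and 85 downstream (11.3%). The 45 precursors shared 50 distinct summits, 47 upstream and 3 inside a hairpin (mir-4962, mir-4974 and mir-11182), and the median summit lay 991 bp from the nearest 5′ end. By distance, the hosted share was 8.09% in the first kb upstream and between 9.56% and 12.5% in the bins from 1 to 5 kb upstream. The stand-alone share was 8.87% in the first kb and between 8.06% and 11.3% in those bins. Both were above the first kb downstream, at 4.41% and 6.45%. Further downstream some bins were as high, with 11.8% of hosted precursors at 8 to 9 kb.

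**Figure D2:**
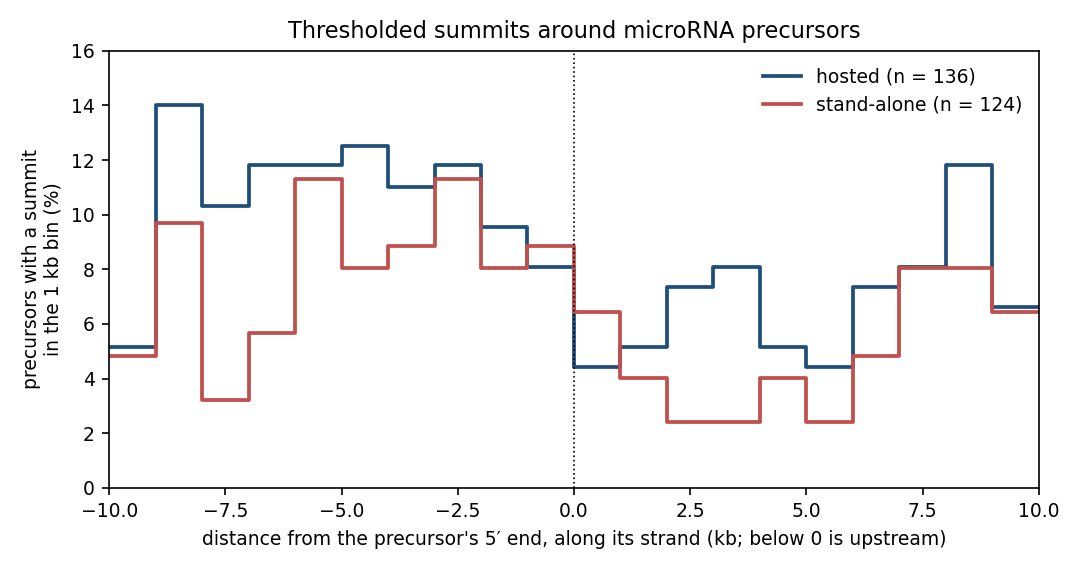
Percent of hosted (blue, n = 136) and stand-alone (red, n = 124) precursors with at least 1 thresholded summit in each 1 kb bin from the 5′ end, along the precursor's strand. In the bin just upstream the shares were 8.09% hosted and 8.87% stand-alone, and in the bin just downstream 4.41% hosted and 6.45% stand-alone.

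The peaks near precursors were of middling height for this list. The deposited signal, the authors' own measure of a peak's height, had a median of 552 over the 50 summits against 518 over all 7842, and the median rank was 3576 against 3921.5. The ranks ran from 46 to 7721, and 9 of the 50 (18%) were among the 1960 highest peaks. Summits of hosted precursors had a median rank of 4172 (28 summits) and those of stand-alone precursors 2730 (22 summits). A replicate was taken to support a peak when 1 of its own 7842 highest peaks overlapped it by 1 bp or more. All 4 replicates supported 33 of the 50 summits (66.0%), against 5034 of all 7842 (64.2%). Those 33 summits belong to 30 precursors. At the other end, the summit of mir-1012 was supported by no replicate and that of mir-4985 by replicate 1 alone. Replicate 1 is in neither the pooled nor the thresholded list, so its support is the most separate of the 4.

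The highest peak belonged to mir-279, a repressor of neuron formation in the olfactory system. Its peak at chr3R:29214145-29214801 ranked 46 in the thresholded list and 69, 43, 51 and 26 in replicates 1 to 4, so it was among the 100 highest in each list. The summit lay 1140 bp upstream of the hairpin and 117 bp upstream of the start of lncRNA:CR31044, the non-coding gene that holds both mir-279 and mir-996. For mir-996 the same summit is 2739 bp away and outside the window. The window of mir-996 itself held only weaker peaks, of rank 12084 in the pooled list and of ranks 11447, 8669, 13091 and 23308 in replicates 1 to 4.

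The next stand-alone peak was that of mir-282, at chr3L:3249931-3250493. It ranked 182 in the thresholded list and 114, 348, 140 and 240 in the replicates. Its summit lay 818 bp upstream of the hairpin and 390 bp upstream of a start of lncRNA:CR43626. The cluster of mir-2c, mir-13a and mir-13b-1 shared an interval at chr3R:15418752-15419316 with summits of rank 824 and 1928. The replicates ranked that interval 553, 1900, 735 and 704, so replicate 2 stood lower than the other replicates. Both summits lay in an exon of lncRNA:CR45911, more than 1 kb inside it, and a weaker peak of rank 6202 lay at the start of that gene.

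The precursor mir-ban makes bantam, which promotes growth and blocks cell death. Its peak at chr3L:640542-640970 ranked 954, and 1156, 835, 1209 and 635 in the replicates. The summit was 1470 bp upstream of the hairpin, in an exon of lncRNA:CR43334 and 1024 bp downstream of the nearest start. Further summits lay around it, of rank 2687 at 0.457 kb and of rank 1320 at 2.10 kb downstream of the 5′ end, and of rank 6256 at 2223 bp upstream. The highest summit within 500 bp of a start of lncRNA:CR43334 was of rank 2368. For mir-375 the ranks were 1383 in the thresholded list and 1663, 994, 1947 and 1260 in the replicates, with the summit 714 bp upstream of the hairpin. For mir-277, which acts on breakdown of branched-chain amino acids, they were 1826, and 1947, 2251, 2123 and 1736. The mir-277 summit lay 1830 bp upstream, in an exon of lncRNA:CR43459. Its neighbour mir-34, known for its role in ageing neurons, is in the same non-coding gene and had no thresholded summit in its window. All 4 replicates supported the peaks of mir-ban, mir-375 and mir-277.

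**Figure D3:**
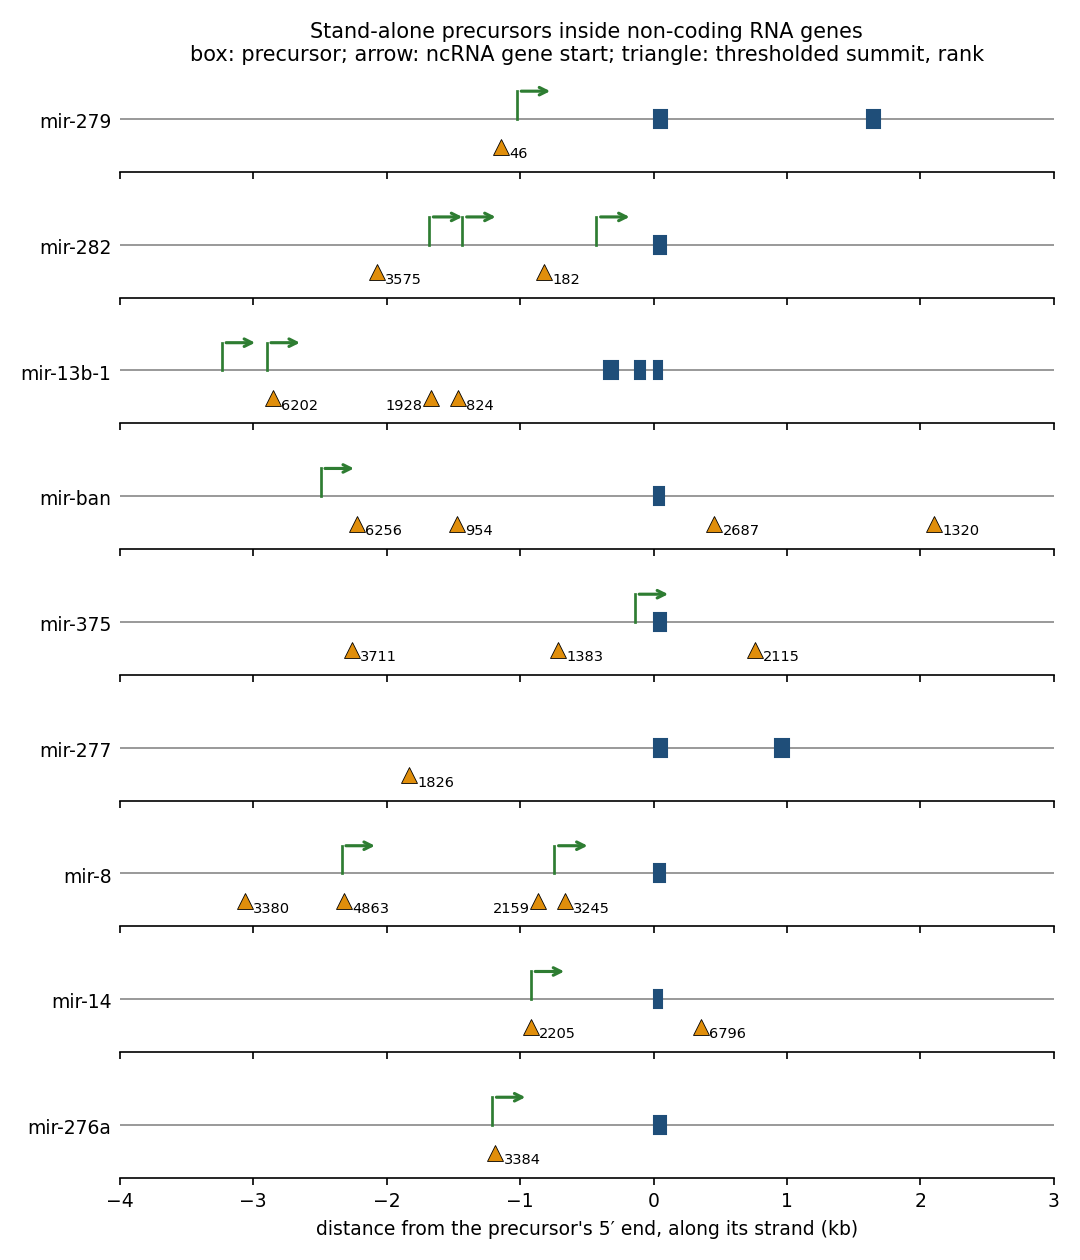
Positions along the precursor's strand, in kb from its 5′ end, of hairpins (boxes), annotated starts of the surrounding non-coding RNA gene (arrows) and thresholded summits with their ranks (triangles), for the 9 loci of this kind with the highest peaks. The rank 46 summit of mir-279 and the rank 2205 summit of mir-14 stand at the arrow, while those of mir-ban (954) and mir-277 (1826) stand away from any start drawn.

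At mir-8, which controls growth and cell size, 1 interval held summits of rank 2159 and 3245 on either side of a start of lncRNA:CR43650. The replicates ranked it 2051, 2229, 1325 and 7145, so replicate 4 stood far below the others. At mir-14, a suppressor of cell death, the summit of rank 2205 was 1 bp upstream of the start of lncRNA:CR43651, with replicate ranks of 4327, 1982, 1390 and 1063. At mir-276a, which acts in memory through a dopamine receptor, the summit of rank 3384 was 24 bp inside the start of lncRNA:CR46006, with replicate ranks of 5797, 3192, 2180 and 3272. These 3 peaks were supported by all 4 replicates. Weaker ones stood at mir-275 and mir-305 (rank 7399, replicates 6299, 5714, 11178 and 9665) and at mir-10 of the Antennapedia complex (rank 7721, replicates 12996, 6634, 8604 and 4676). Each of these was supported by 2 replicates. The mir-10 summit was 9 bp upstream of the start of lncRNA:CR45915, which is not the same-strand gene around the hairpin.

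Of the 9 stand-alone precursors outside non-coding genes that had a summit, 6 had it within 500 bp of a protein-coding start and 3, mir-305, mir-4978 and mir-4981, did not. The summits of mir-2496 ranked 2012 and 2721, near the start of PIG-K, with replicate ranks of 1271, 4723, 1587 and 2138. That of mir-992 ranked 2739, near Nnf1a, with replicate ranks of 4982, 3184, 2027 and 1346. It was also within 500 bp of a start of HnRNP-K, the host of mir-7. The summit of mir-9380 ranked 3563, near Atg13, which acts in autophagy, with replicate ranks of 2942, 5337, 3701 and 5160. The summit named first for each was within 202 bp of the neighbour's start, and all were supported by all 4 replicates. The peak of mir-4981, of rank 3291, stood 660 bp from the nearest start.

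Among hosted precursors the highest peak was in Mob2, a kinase cofactor, around mir-4968. It ranked 550, and 756, 430, 604 and 460 in the replicates, and lay in an intron 1423 bp from the nearest start. A further summit of rank 5595 near mir-4968 was 143 bp from a Mob2 start and was supported by 3 replicates. In bun, a TSC22-family gene, mir-967 had summits of rank 1432 and 4136, and the interval ranked 2429, 1514, 859 and 1189. In CG17124, mir-9378 had a summit of rank 2156 in an intron. In Oda, which restrains polyamine synthesis, mir-281-1 and mir-281-2 shared a summit of rank 2207, with close replicate ranks of 2042, 2226, 2368 and 2699. It lay 413 bp upstream of a start of asRNA:CR46194, a same-strand non-coding gene around both hairpins, and not within 500 bp of an Oda start. These peaks were supported by all 4 replicates.

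Further hosted precursors had their summit at the start of the host. For mir-2283 in CG8176 and Kdm3, a histone demethylase gene, the ranks were 2223 and 4208, and 2083, 3223, 1463 and 2286 in the replicates. For mir-2493 in CG42788 the rank was 2299. For mir-9374 in Hr39, a nuclear receptor gene, the ranks were 3299 and 5836, and 4305, 4209, 2070 and 4534 in the replicates, with replicate 3 highest. The summits of mir-4918 in tex (rank 3172), mir-4911 in ND-23 (3589), mir-308 in the ribosomal protein gene RpS23 (3975) and mir-4949 in ATPsynC (4072) lay within 154 bp of the host's start. ND-23 and ATPsynC encode parts of the respiratory chain and ATP synthase. All of these were supported by all 4 replicates. Inside the hairpin rather than upstream lay the summit of mir-4962 in the kinase gene Tlk (rank 2831) and the weaker of those of mir-4974 in CG8671 (ranks 3661 and 5738). The rank 5738 summit had no overlapping peak in replicate 3.

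**Figure D4:**
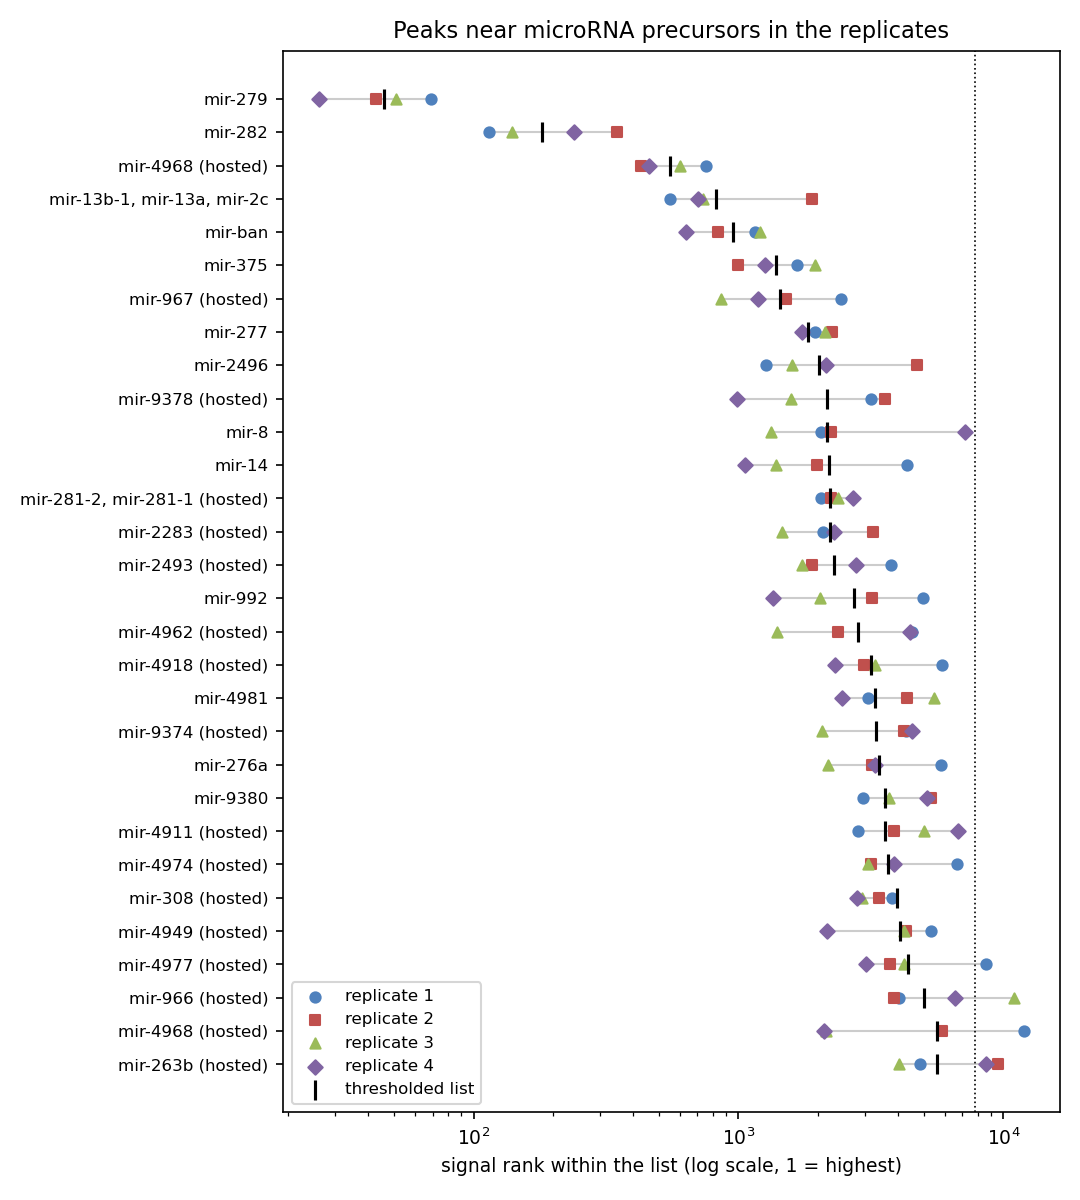
Rank by signal of the 30 highest peaks near precursors in the 4 replicate lists (symbols) and in the thresholded list (black bars), on a log axis with 1 the highest. The dotted line marks 7842, the number of peaks taken from each replicate; the 4 ranks of mir-279 lie between 26 and 69, and from mir-4977 downward some replicates pass the line.

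Of the 11 hosted summits among the 3921 highest peaks, all 11 were supported by 4 replicates, and of the 17 lower ones 6 were. Support is itself defined by rank in the replicates. No such split is given for all thresholded summits, of which 64.2% had support from 4. It therefore cannot be said whether the counts are particular to hosted precursors. Among the 6 lower summits with such support was that of mir-9377 in Tis11, a regulator of messenger RNA decay. It ranked 6425, and 7582, 3099, 6529 and 4820 in the replicates. The summit of mir-4977 in Eaf ranked 4356, that of mir-966 in Pfas 5014, and those of mir-263b in meru 5627 and 7094. For mir-263b, which protects sensory bristle cells from death, the interval ranked 4847, 9568, 4053 and 8579, supported by 2 replicates. The summit of mir-iab-8, which represses homeotic genes from within the bithorax complex, ranked 6291, and 8587, 5369, 6612 and 5534. Its hairpin overlaps that of mir-iab-4 on the other strand, whose window on the opposite side held a pooled peak of rank 13158 and no thresholded one.

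Summits near precursors stood at starts of non-coding RNA genes more often than summits in general. Of the 50, 24 lay within 500 bp of a protein-coding start (48.0%, against 50.1% of all thresholded summits), and 8 within 500 bp of a non-coding start alone (16%, against 2.58%). A further 5 lay in exons (10%, against 2.30%), 8 in introns (16%, against 31.6%) and 5 between genes (10%, against 13.5%). Of the 28 summits of hosted precursors 17 lay within 500 bp of a start of the host itself, and of the 22 of stand-alone precursors 6 lay at a start of the non-coding gene around the hairpin. Non-coding genes crowd around stand-alone hairpins by annotation, and the part this has in these shares was not tested.

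Annotated starts of the non-coding genes around hairpins were then counted whatever their distance from the hairpin. Of the 46 stand-alone precursors inside a non-coding gene, 12 (26.1%) had a thresholded summit within 500 bp of a start of that gene, against 11.7% of 2520 other non-coding RNA genes. For 9 of the 12 there was a summit in the precursor's own window as well. The other 3 were mir-996, mir-bft in lncRNA:CR43314 (rank 4170) and mir-4951 in lncRNA:Hsromega (rank 414), the heat-shock RNA omega gene. The mir-2c cluster counts as 3 among the 12 and mir-279 with mir-996 as 2. A share of precursors is thus set beside a share of genes. Genes were not matched by number of starts or length, and the part these have in the difference was not tested.

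Host genes had peaks at their starts more often than coding genes at large. Of 128 host genes, 69 (53.9%) had a thresholded summit within 500 bp of a start, against 31.4% of 13945 protein-coding genes, and 77 of the 136 hosted precursors (56.6%) lay in such a host. Hosts are longer, with a median of 14094.5 bp and 2 starts, against 2147 bp and 1 start in coding genes that host no precursor. Counted by number of starts, 21 of 56 hosts with 1 start had a summit (37.5%), against 24.9% of other coding genes, and 48 of 72 hosts with several starts (66.7%), against 48.9%. Counted by length, 50 of 73 hosts of 10 kb or longer had one (68.5%), against 45.6%, and 19 of 55 shorter hosts (34.5%), against 28.9%. Hosts thus stood above other coding genes in each of these classes, by the least among shorter genes, and the part that length has in the difference was not tested further.

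The host with the highest promoter peak was spi, which encodes a ligand of the EGF receptor and holds mir-2a-1, mir-2a-2 and mir-2b-2, at rank 213. It was followed by CG5953 with mir-4943 at rank 268, the cGMP-dependent kinase gene for with mir-4972 at 275, and the tyrosine kinase gene Btk with mir-2b-1 at 295. None of these hairpins had a thresholded summit in its own window. A replicate list did place a peak upstream of mir-2a-1 and mir-2b-2, at rank 6173 in replicate 3 and 5191 in replicate 4, and the pooled list ranked that window 12787. Among hosts picked out after their values were seen, the same was so for jigr1 with mir-92a and mir-92b (rank 812), Sxl, the sex-determination switch, with mir-4956 (rank 949), and E2f1, a cell-cycle regulator, with mir-998 and mir-11 (rank 2409). Any annotated start of the host counted, wherever it lay relative to the hairpin. The jigr1 peak of rank 812 lay at -575 bp from the 5′ end of mir-92a, where values below 0 are downstream. The rank 275 peak of for lay at -4550 bp from that of mir-4972.

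Of 25 names listed as well studied, 24 matched the annotation. Of these, 8 (33.3%) had a thresholded summit, against 17.3% of all precursors, and 16 had none in the window. A weaker peak of the pooled list stood in 7 of these windows, among them mir-1 of muscle (rank 15674), mir-124 of neurons (15267), mir-9a of sensory organs (16218) and mir-7 (19035). For mir-1 the replicates ranked 20903, 14144, 16161 and 22932, and for mir-9a 17195, 18379, 19821 and 21129, low in every list. For mir-124 they ranked 20420, 9741, 7840 and 13550, so in replicate 3 alone it was just within the 7842 highest. For mir-315, an activator of Wingless signalling, the pooled rank was 25943. None of these windows held a thresholded summit. The q-values of these peaks are not given here, and the largest q-value anywhere in the pooled list was 0.37. No list had a summit in the window of 7 others, which are mir-100, mir-let7 and mir-125 of the metamorphosis-timing let-7 complex, mir-184, mir-276b, mir-278 and mir-309. The mir-309 cluster clears maternal messages in the early embryo. For mir-34 replicates 1, 2 and 4 had weak peaks (ranks 14751, 10382 and 12719), and for mir-310 replicate 3 alone did (rank 20586).

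Over all 260 precursors, 91 (35.0%) had a summit of the pooled list, 46 of them without a thresholded one, and 125 had none in any list. In the replicates' own lists 60 precursors had a summit in at least 1 list, 44 of them with a thresholded one and 16 without. All 30 with a summit in the own lists of all 4 replicates also had a thresholded one, 200 had none in any own list, and mir-1012 was the single thresholded precursor among these 200. A wider window took in more, with 88 precursors at a reach of 5 kb. No share of other genes is given for the pooled list, for several lists together or for that reach. These counts therefore cannot be called high or low. Just inside the 2 kb limit were summits of mir-277 at 1830 bp, mir-4968 at 1842 bp, mir-281-2 at 1875 bp and mir-992 at 1967 bp. Within 300 bp outside it, mir-991 (2077 bp), mir-1009 (2159 bp) and mir-9372 (2218 bp) had a summit and none in the window, and 5 precursors already counted had a further summit.

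DNA under these summits was richer in G and C than at summits in general. The median GC content of the 101 bases was 39.1% at the 50 summits, against 32.7% at all 7842. At starts of genes it was 42.6% at 32 summits near precursors and 34.7% at 4096 other summits, and elsewhere 32.7% at 18 and 30.7% at 3696. The AT-rich words marked above were less frequent too. At least 1 of the 5 words stood in 26 of the 50 windows (52.0%), against 69.1% of all. At starts they stood in 14 of 32 (43.8%), against 67.4% of other summits there, and elsewhere in 12 of 18 (66.7%), against 71.1%. Base composition sets how often such words occur, so these are not separate observations. The 5 motifs were searched by their letters on both strands in the same 101 bases. GAGAG, the core of sites of the GAGA factor, stood in 10 of 50 windows (20%), against 11.3% of all summits and 13.8% of flanks 500 bp away. CANNTG stood in 21 (42.0%, against 34.0%), TGTGTG in 7 (14.0%, against 8.91%), GATAAG in 1 (2.0%, against 5.15%) and TATCGATA in 0 (against 2.03%). A match is a description of letters and not a site.

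Genes of the microRNA pathway were counted from a list of 23 names, which matched 22 protein-coding genes. Of these, 12 (54.5%) had a thresholded summit within 500 bp of a start, against the 31.4% of coding genes given above. That background varies, at 24.9% of coding genes that host no precursor with 1 start and 48.9% of those with several. Pathway genes were not matched by number of starts or length, and the part these have in the difference was not tested. Of the core of the microRNA branch, AGO1 ranked 2584 (replicates 2960, 1864, 2827 and 2268) and loqs, the partner of Dcr-1, ranked 5444 (replicates 5098, 6581, 5385 and 7317). For gw, the silencing partner of AGO1, the rank was 1381, with 1170, 10955, 1032 and 1199 in the replicates, replicate 2 standing far below the others. The nuclear processor drosha with pasha, Dcr-1 itself and Ars2 had none. Of the small interfering RNA branch, r2d2 (938) and AGO2 (4865) had a summit and Dcr-2 and Hen1 had none. The translation regulators brat (1720), mei-P26 (7711) and Fmr1 (5374), the deadenylase subunits twin (3370) and Pop2 (3469), the trimming nuclease Nbr (3941) and the export receptor Ranbp21 (6216) had one. Not1, me31B, Tailor and ldbr had none in the thresholded list. For Not1, the scaffold of the deadenylase complex, the replicates themselves had summits within 500 bp of a start, at ranks 7197, 3619, 7528 and 3637.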

How the data were processed

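Chromatin immunoprecipitation was measured in 4 replicates of 1 group. The authors deposited a list of 30000 peaks for each replicate, a pooled list and a thresholded list of 7842 peaks. Per the deposited notes, the pooled and thresholded lists rest on replicates 2, 3 and 4, and coordinates are those of dm6. Neither the aligner nor the peak caller is given in the sources used here. The deposited signal values and −log10 q-values are the authors' own; signal was used only to rank peaks within a list. The deposited summit offset (unit other) placed each summit. Sequencing depth is unknown from these lists, and depth could change a replicate's ranks.

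Genes came from Ensembl release 115, with transposable elements and unnamed entries that each hold 1 mature arm left out, and sequences from RefSeq. Hosted precursors lie wholly within a protein-coding gene on their strand. A replicate's rank at a peak is its best rank over intervals overlapping by at least 1 bp, so summits in 1 interval share it. Alternatives were windows of 500 bp to 5 kb, other lists, host strand, chaining and left-out replicates. Python 3.11.15, NumPy 2.4.6, pandas 2.3.3 and matplotlib 3.10.9 were used, and the window rule was tested on simulated data. The members, lists and rules were chosen with earlier results of these data known. Named are the precursors with the highest peaks, a list of well-studied precursors, those near the 2 kb limit, hosts and pathway genes. A few lower peaks and hosts are given by counts.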

Additional observations from a re-analysis of the deposited data

Results flagged for a closer look

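Of 62 sets of 4 replicate values examined, 7 had 1 replicate set apart from the others by more than Dixon's 95% limit; chance flags about 1 in 20 groups. Near precursors, the interval of mir-13b-1, mir-13a and mir-2c ranked 1900 in replicate 2, against 553, 735 and 704 in the others. The mir-8 interval ranked 7145 in replicate 4, against 2051, 2229 and 1325. The mir-9374 interval ranked 2070 in replicate 3, against 4305, 4209 and 4534. Among pathway genes, the promoter peak of gw ranked 10955 in replicate 2, against 1170, 1032 and 1199, and that of r2d2 ranked 2770 in replicate 3, against 762, 854 and 997. That of twin ranked 2285 in replicate 3, against 4035, 3766 and 3871, and that of Ranbp21 ranked 9934 in replicate 4, against 7453, 7472 and 6982. The replicate set apart was not the same one throughout, and for mir-9374 and twin it ranked higher than the others rather than lower. Without replicate 2 the gw peak, and without replicate 4 the Ranbp21 peak, was within the 7842 highest of every remaining replicate.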

How the results depend on the processing

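No paired analysis was possible because the study has 1 group. The count of 45 precursors with a summit was 10, 24 and 88 with an upstream reach of 500 bp, 1 kb and 5 kb, 27 with only the 3921 peaks of highest signal and 91 with the pooled list; it was 46 by interval overlap and 40 to 46 in the replicates' own lists. The 30 precursors supported by all 4 replicates were 30 to 32 when each replicate was left out, 26 when replicate summits had to lie within 100 bp and 45 with any replicate peak. The mean share of 16.5% over replicates was 16.2% to 16.9% with each replicate left out and 39.7% with full lists. No share of other genes is given for the full lists, the pooled list or the reaches of 1 kb and 5 kb. Hosted minus stand-alone, -0.83 percentage points, had no stable sign: it was -2.88 with hosts on either strand, 2.73 and 7.66 with a reach of 500 bp and 5 kb, -3.27 with those 3921 peaks, 3.13 in the own list of replicate 4 and -6.31 with each locus counted as 1. Precursors minus other genes, -10.7 points, stayed negative in every alternative run: -13.2 against coding genes, -7.89 against genes of up to 200 bp, -16.3 at 500 bp, -6.44 with those 3921 peaks and -12.8 in the own list of replicate 1. The share of summits near a gene start, 64%, was 54% within 200 bp, 72% within 1000 bp and 74% when starts of mature-arm entries were counted, an alternative chosen after seeing the data. GAGAG stood in 30% of windows within 100 bp. A wider window holds any word more often, and no share of all summits is given at that width. The cause of these shifts was not tested beyond the change of window or list itself. The lists give no depth, so a precursor without a peak is one where none was detected.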

Other observations

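Precursors with low numbers in their names, which were mostly described earlier, and those with high numbers were counted apart after the data were seen. Of 108 precursors numbered 2279 or above, 22 (20.4%) had a thresholded summit, 15 of 79 hosted and 7 of 29 stand-alone. Of 147 numbered 1017 or below, 21 (14.3%) had one, 7 of 56 hosted and 14 of 91 stand-alone. Among the 76 precursors with a summit in all 4 full replicate lists, 32 had no thresholded summit. The share of other genes with a summit in all these lists is not given.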
